A study of Mus musculus with 4 samples.

Results

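The genes of the major histocompatibility complex (MHC, called H2 in the mouse) and of antigen processing were examined in 4 mouse cell populations. They were taken as every array probe whose gene name starts with H2-, together with those of 14 named genes of peptide supply, loading and MHC control. This gave 66 probes of 55 genes, out of 35527 gene names on the array, and each gene was read from its brightest probe. Of the 55, 28 were class I genes (2 classical and 26 non-classical), 10 class II genes, 11 genes of class I loading and the immunoproteasome, 2 transactivators and 1 the class II chaperone Cd74. The other 3, H2-Ke2, H2-Ke6 and H2-gs10, were placed outside both classes by their symbols. For H2-gs10 this rests on the symbol alone, since RefSeq names it H2-Q4, a gene of the H2-Q region.

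Total RNA of each population was hybridized to a 1-colour Agilent array. iPS-OSH and iPS-J are induced pluripotent stem (iPS) cell lines of C57BL/6 background, ESC are embryonic stem cells of 129SV background, and MEF are embryonic fibroblasts of C57BL/6 background. LIF, a cytokine that keeps mouse stem cells undifferentiated, and 2-Me were in the medium of the pluripotent lines but not of MEF, and no further treatment was named. The labels do not say how the iPS lines were made, nor whether any population came from more than 1 culture.

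With 1 array per population, differences could not be set against a spread between replicates, and no test was made. A gene was counted as different at a 2-fold change, a rule of size alone. Levels are log2 of the signal over the 75th percentile of the signals of the same array, and differences are log2 differences of these levels. Between the arrays, 67.0% to 81.7% of spots were well above background, and the spots of a probe printed 10 times gave a difference a technical SD of 0.13 to 0.21, which leaves out the spread between cultures. ESC differed from the rest in strain and scan session and MEF in scan session, and these cannot be told apart from cell type. The pair iPS-OSH and iPS-J shared strain and session. The labelled identities were checked on markers: Pou5f1, the pluripotency factor Oct4, stood at 2.74, 3.26 and 2.50 in iPS-OSH, iPS-J and ESC against -4.40 in MEF. The collagen gene Col1a1 stood at 5.26, 2.98 and 2.88 against 7.82.

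MHC class I molecules sit on nearly all nucleated cells and show peptides of the cell's own proteins to CD8+ T cells and natural killer (NK) cells. The proteasome cuts the peptides, the TAP transporter carries them into the endoplasmic reticulum, and chaperones load them onto a heavy chain paired with beta-2 microglobulin. Class II molecules load peptides of engulfed proteins and are made mainly by antigen-presenting cells under the transactivator CIITA. Pluripotent and early embryonic cells are known for little class I on their surface. Strains of the C57BL/6 and 129 families carry related b-type H2 haplotypes, in which the class II gene Ea is not expressed.

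The stretches of RNA read on the array are shown first, since closely related H2 genes could share them. Below are the first 30 bases of the 60-base probes of 6 genes on which the results turn. They lie, on the mm9 build, at chr2:121978401-121978460 (B2m), chr17:34133055-34133114 (H2-K1), chr17:35403886-35403945 (H2-D1), chr17:34353116-34353175 (Tap2), chr17:34406296-34406355 (H2-Ab1) and chr17:34453075-34453134 (H2-Eb1). H2-K1 is on the minus strand and the others on the plus strand, and no annotation of mm9 exons or UTRs was used here.
B2m: ttgaacctgcttaattacaaatccagtttc
H2-K1: tgaatgtaaccttgattgttatcatcttga
H2-D1: cagttctctttacacaacattgtctgatgt
Tap2: tcaggataaagattgggaccgttttggact
H2-Ab1: tagtaaaccaatgtatgcttatccccacct
H2-Eb1: ggcacttctgagccagtctgctgtcatatg
Among the brightest probes of the 28 class I genes and of H2-gs10, 1 of 406 pairs shared an unbroken run of 20 bases or more. That pair was H2-T18 and H2-T3-like, with 34 bases. Signal from other transcripts that resemble a probe was not tested, and the levels of the H2-Q and H2-T genes are uncertain to that extent.

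Sequence before the start sites was also read, since B2m and 14 of 25 class I genes exceeded their iPS-J level by 2-fold or more in iPS-OSH. By the same rule 2 class I genes fell below it, where 8.91% of all genes were higher and 7.39% lower. Genes of both classes are known to share a promoter module with an X2 box, which resembles a cyclic AMP response element, and a Y box, bound by NF-Y. The 250 bases before the RefSeq start sites (GRCm38.p6) were searched on both strands for TGACG (X2 core), CCAAT (Y box), a pair of GAAA runs with any 2 bases between them (interferon response element) and the NF-kB site of class I genes, which is the 11-base run in capitals before TGACG in the H2-K1 sequence. RefSeq promoters were at hand for 38 member genes, with 41 start sites. Below are those of B2m at chr2:122147437-122147686 (plus strand), H2-K1 at chr17:34000334-34000583 (minus strand, the first of its start sites), H2-D1 at chr17:35262844-35263093 (plus strand) and the class II gene H2-Aa at chr17:34287824-34288073 (minus strand). Capitals mark every match, and a Y box on the other strand reads ATTGG.
B2m: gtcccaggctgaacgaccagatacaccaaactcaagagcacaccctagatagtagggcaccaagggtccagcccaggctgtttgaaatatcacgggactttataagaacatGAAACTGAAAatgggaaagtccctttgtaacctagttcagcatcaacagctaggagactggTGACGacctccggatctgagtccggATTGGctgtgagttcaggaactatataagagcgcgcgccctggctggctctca
H2-K1: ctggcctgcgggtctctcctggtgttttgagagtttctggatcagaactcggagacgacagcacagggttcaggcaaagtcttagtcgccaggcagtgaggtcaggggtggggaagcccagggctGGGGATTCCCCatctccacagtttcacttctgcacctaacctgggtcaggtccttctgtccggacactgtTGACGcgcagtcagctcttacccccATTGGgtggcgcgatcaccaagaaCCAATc
H2-D1: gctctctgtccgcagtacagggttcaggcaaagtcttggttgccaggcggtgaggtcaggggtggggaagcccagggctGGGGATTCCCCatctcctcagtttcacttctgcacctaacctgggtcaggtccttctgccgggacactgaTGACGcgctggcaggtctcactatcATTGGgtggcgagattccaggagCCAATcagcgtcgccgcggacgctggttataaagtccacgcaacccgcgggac
H2-Aa: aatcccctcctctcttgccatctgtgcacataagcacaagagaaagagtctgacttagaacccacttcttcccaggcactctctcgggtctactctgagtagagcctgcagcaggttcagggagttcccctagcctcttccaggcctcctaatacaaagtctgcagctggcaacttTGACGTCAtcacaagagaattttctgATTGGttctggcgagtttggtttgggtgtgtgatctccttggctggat
In these 4 promoters an X2 core was followed by an inverted Y box whose first base lay 25 bases on, or 26 in H2-Aa, where TGACG is also found on the other strand in the overlapping letters. A spacing of 20 to 28 bases was set after the sequences had been seen. It was met in 7 of the 41 member promoters, those of B2m, H2-K1 at both start sites, H2-D1, H2-Q7, H2-M3 and H2-Aa, and in 0.335% of all 32851 promoters. The NF-kB letters were present before H2-K1 (both start sites), H2-D1 and H2-Q6 and in 0.0304% of all promoters. The interferon element was present before B2m and H2-T23 and in 2.98% of all promoters. X2 cores at any spacing were in 15 of the 41 member promoters, against 17.8% of all promoters. All 15 also held a Y box, where 6.12% of all promoters held both. Y boxes were in 34 of the 41, against 33.8% of all. These member shares are thus above those of all promoters. For the spaced pair this carries no weight, since its window was set after these sequences had been seen. The 41 hold 2 start sites each of H2-K1, H2-M9 and H2-DMa, and promoters of related genes, so they are not independent. B2m, H2-K1, H2-D1 and H2-Q7 have the spaced pair and were 2-fold higher in iPS-OSH than in iPS-J. H2-M3 has the pair and was lower, while H2-Q2, H2-Q6 and H2-T23, among others, lack it and were higher. A match is a description of these letters and not a binding site, and any part of the letters in the levels was not tested.

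The classical heavy chains, which present peptides to CD8+ T cells, were as high in iPS-OSH as in MEF and lower in iPS-J. H2-K1 stood at 3.98 in iPS-OSH, 2.76 in iPS-J, 3.44 in ESC and 3.75 in MEF. Its probe was printed 10 times, and the spot SDs were 0.07, 0.09, 0.15 and 0.11. The iPS-J spots, from 2.62 to 2.92, lay below every spot of the other arrays, while spots of iPS-OSH and MEF overlapped by a narrow margin. iPS-J was 2.33-fold below iPS-OSH and 1.98-fold below MEF, just inside the 2-fold limit. The second H2-K1 probe gave 2.58, 0.94, 1.72 and 2.19, in the same order of arrays. H2-D1 stood at 3.44, 0.93, 1.76 and 3.21 in iPS-OSH, iPS-J, ESC and MEF. It was 5.69-fold higher in iPS-OSH than in iPS-J and 3.20-fold higher than in ESC, and lay within 2-fold of MEF.

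B2m, the light chain that every class I heavy chain needs to reach the surface, showed the widest gap of the loading genes measured on all 4 arrays. Its level was 5.91 in iPS-OSH, 2.81 in iPS-J, 2.48 in ESC and 6.05 in MEF, with SDs of at most 0.10 over the 2 spots on each array. iPS-OSH and MEF were both high, iPS-J and ESC both low. iPS-J was 9.46-fold and ESC 11.9-fold below MEF, whereas iPS-OSH differed from MEF by 1.1-fold, less than the technical SD.

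**Figure D1:**
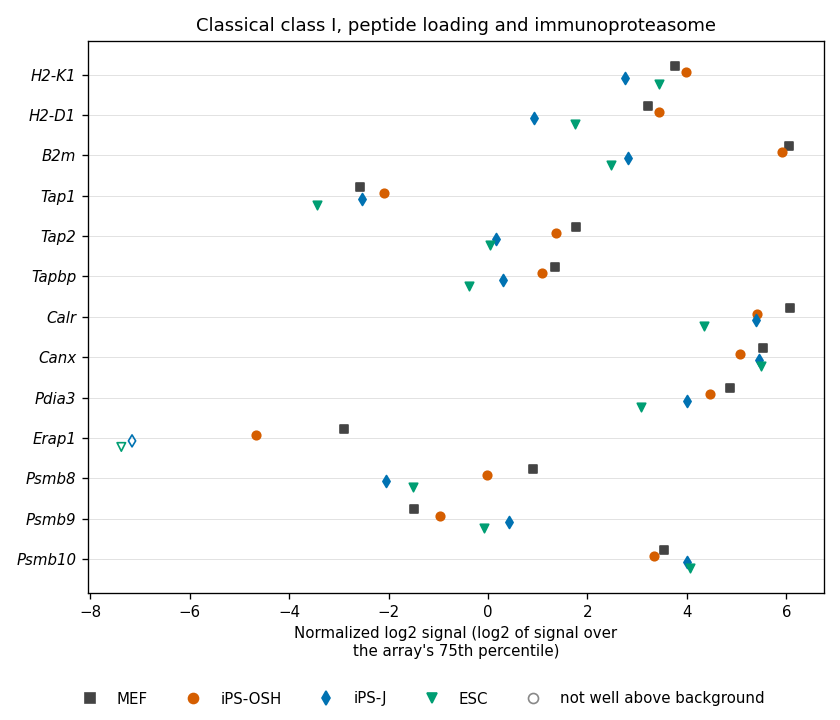
Normalized log2 signal of the classical class I, peptide loading and immunoproteasome genes (one row per gene, x axis) on each array, with 1 point per array and no error bar, since each population had 1 array. iPS-OSH lies near MEF for H2-D1, B2m, Tap2 and Tapbp, while iPS-J and ESC lie lower, and Psmb9 has the opposite order.

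The TAP transporter genes and the loading chaperones were split in their pattern. Tap2, a subunit of the peptide transporter, stood at 1.36, 0.15, 0.03 and 1.76 in iPS-OSH, iPS-J, ESC and MEF. iPS-J was 3.06-fold and ESC 3.31-fold below MEF, and iPS-OSH lay within 2-fold. Tapbp, the tapasin gene that bridges TAP and class I, stood at 1.09, 0.30, -0.39 and 1.34, so that ESC was 3.31-fold below MEF. iPS-J was 2.05-fold below it, which normexp correction brought inside 2-fold, at -0.87. These genes thus had the order of arrays seen for B2m, except that iPS-J and ESC were not equally low for Tapbp. Tap1, the partner subunit of Tap2, was dim, with levels of -2.08, -2.53, -3.45 and -2.58. Its ESC spots, from -3.67 to -3.17, lay below all others, and the iPS-OSH spots were highest, but iPS-J and MEF spots overlapped and no array was 2-fold from MEF.

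**Figure D2:**
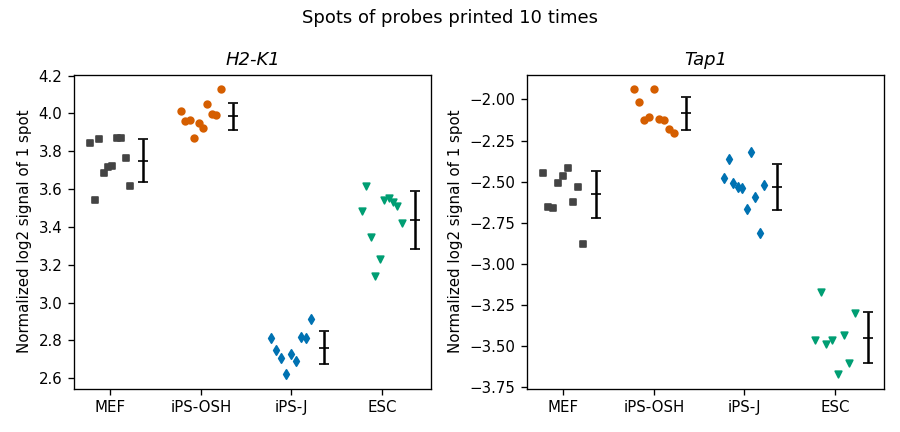
Normalized log2 signal of single spots (y axis) of the H2-K1 and Tap1 probes, each printed 10 times, on each array, without spots called outlying. Points are spots and the bars are mean and SD over spots of 1 array, so they show printing and scanning noise only. For H2-K1 the iPS-J spots (2.62 to 2.92) lie lowest, for Tap1 the ESC spots (-3.67 to -3.17).

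The general chaperones of the endoplasmic reticulum, which fold many glycoproteins besides class I, moved less between the iPS lines. Calr, the calreticulin gene, stood at 5.40 in iPS-OSH, 5.40 in iPS-J, 4.33 in ESC and 6.08 in MEF. Pdia3, the disulfide isomerase of the loading complex, stood at 4.46, 4.01, 3.08 and 4.87. Both were lowest in ESC, Calr 3.35-fold below MEF and Pdia3 with a difference of -1.79 from it. With normexp correction Calr was within 2-fold between ESC and either iPS line. Canx, the calnexin gene that holds new heavy chains, ranged from 5.06 to 5.53 and was within 2-fold in all 6 pairs. Erap1, which trims peptides in the endoplasmic reticulum, stood at -2.89 in MEF and -4.66 in iPS-OSH and was not well above background in iPS-J and ESC. It was at least 5.89-fold lower in iPS-J and at least 5.46-fold lower in ESC than in MEF, each taken against the lowest signal that was well above background there. Of its levels, the MEF one alone exceeded the ERCC level of its array. That level is a stricter background, set so that 95% of the control probes for synthetic ERCC RNAs lie under it. Against it as the limit, the differences from MEF were -0.90 in iPS-OSH and -0.96 in iPS-J, inside 2-fold. For ESC it gave no difference, since the ERCC level of that array, -2.62, lies above the MEF level of Erap1.

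The immunoproteasome subunits, which replace 3 subunits of the standard proteasome under interferon, did not move together. Psmb8 stood at -0.02 in iPS-OSH, -2.05 in iPS-J, -1.5 in ESC and 0.91 in MEF. It was 7.80-fold lower in iPS-J and 5.32-fold lower in ESC than in MEF, but within 2-fold in iPS-OSH. Psmb9 had the reverse order, at -0.97, 0.43, -0.08 and -1.49. It was 3.79-fold higher in iPS-J and 2.67-fold higher in ESC than in MEF, although the ESC difference was 0.89 with spike-in scaling. Psmb10 was bright throughout, from 3.33 to 4.06, with no 2-fold difference in any pair. The 18 genes of the standard proteasome and its activators were a background to these, and 18, 17 and 17 of them lay within 2-fold of MEF in iPS-OSH, iPS-J and ESC. The gene outside was Psme3, a nuclear activator, with levels of 1.55 in MEF, 2.91 in iPS-J and 3.24 in ESC. Of all genes, 13.7% were 2-fold higher and 25.1% lower in iPS-OSH than in MEF, 16.3% and 26.2% in iPS-J, and 22.6% and 16.7% in ESC.

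Taken as a list, all 11 loading and immunoproteasome genes entered the comparisons with MEF. In iPS-OSH, 0 were 2-fold higher and 1 lower than in MEF, with a median log2 difference of -0.40, where 13.7% of all 31391 genes tested were higher and 25.1% lower with a median of -0.33. In iPS-J, 1 was higher and 5 lower (median -0.86), where 16.3% of all genes were higher and 26.2% lower (median -0.31). In ESC, 1 was higher and 7 lower (median -1.73), where 22.6% of all genes were higher and 16.7% lower (median 0.13). The iPS-OSH count is thus no larger than the background on either side, and the ESC count of lower genes is well above it. Between iPS-OSH and ESC, 7 of 11 were higher and 0 lower in iPS-OSH (median 1.33), where 8.86% of all genes were higher and 27.6% lower (median -0.30). Between the iPS lines 3 were higher and 1 lower in iPS-OSH (median 0.45), where 8.91% of all genes were higher and 7.39% lower (median 0.01). Between iPS-J and ESC, 10 of the 11 could be compared, of which 1 was higher and 0 lower in iPS-J (median 0.42), where 5.51% of all genes were higher and 25.9% lower (median -0.21). These comparisons share arrays and are not independent.

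The non-classical class I genes of the H2-Q and H2-T regions, several of which encode ligands of NK cells or of specialised T cells, were in part higher in iPS-OSH than in iPS-J. Of 14 such genes, 8 were 2-fold higher and 1, H2-T18, was lower, where 8.91% of all genes were higher and 7.39% lower. The H2-T18 difference is a lower bound, and its levels never exceeded the ERCC level. H2-Q10 was 1 of the 8, but its other probe went the other way, at -0.46. H2-Q7, a Qa-2 antigen gene, stood at 2.89 in iPS-OSH, 0.64 in iPS-J, 2.15 in ESC and 2.37 in MEF. iPS-J alone was low, 4.74-fold below iPS-OSH, 2.84-fold below ESC and 3.33-fold below MEF. H2-T23, whose product Qa-1 is bound by the NK receptor CD94/NKG2A, stood at 2.75, 1.28, 1.76 and 2.27, highest in iPS-OSH and lowest in iPS-J. H2-Q2, at 3.10, 1.60, 2.47 and 2.24, and H2-Q6, at 1.76, 0.19, 0.65 and 1.26, had their highest and lowest levels on the same arrays. H2-T10 and H2-T9, ligands of gamma-delta T cells whose H2-T9 probe RefSeq assigns to H2-T22, were instead lowest in ESC. H2-T10 stood at 0.40 in iPS-OSH, -1.06 in iPS-J, -1.76 in ESC and 0.45 in MEF. H2-T9 stood at 0.84, -0.56, -0.99 and 1.12. Both were alike in iPS-OSH and MEF to within 0.28, and H2-T10 was 4.63-fold lower in ESC than in MEF.

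H2-Q5, H2-Bl and H2-T10 are listed by RefSeq as transcribed pseudogenes, so their signal need not stand for a protein. H2-Q5 stood at 2.66, 1.37, 1.70 and 1.84, and H2-Bl at 0.02, -1.46, -0.58 and -0.82, in iPS-OSH, iPS-J, ESC and MEF. Both were again highest in iPS-OSH and lowest in iPS-J. The H2-Q5 probe was matched by symbol alone. It is placed at chr17:36246864-36247298 on mm9, near the H2-T10 probe and apart from the other H2-Q probes, so its gene is uncertain. H2-M3, which presents formylated peptides of bacteria and mitochondria, went another way, at -1.79, -0.68, -1.40 and -0.46, with a difference of -1.11 between iPS-OSH and iPS-J. H2-Q8 was highest in ESC at 0.14, against -1.10, -0.92 and -1.31 in iPS-OSH, iPS-J and MEF. H2-Q10, secreted by liver, stood at -0.84, -2.08, -1.58 and -1.73, but its other probe was at -1.44, -0.98 and -0.69 in the pluripotent cells and not above background in MEF, so the probes disagreed. H2-M2 stood at 0.65, -1.0, 0.20 and 0.46 on a probe of 10 spots with SDs of 0.18 to 0.36, while its other probe, from -5.36 to -3.71, had its lowest level in iPS-OSH.

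**Figure D3:**
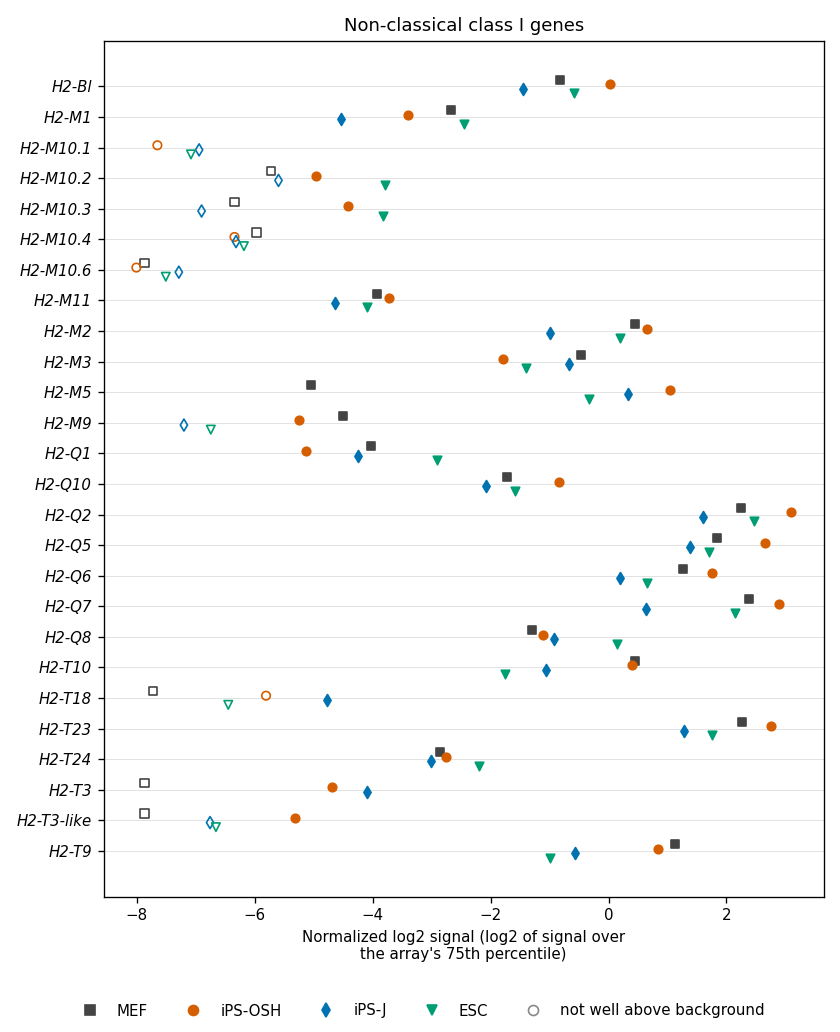
Normalized log2 signal of the 26 non-classical class I genes (rows) on each array (x axis), with filled points well above background and open points not, 1 array per population. H2-Q2, H2-Q5, H2-Q6, H2-Q7 and H2-T23 are highest in iPS-OSH and lowest in iPS-J, and the H2-M10 genes lie at or near background.

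H2-M5 showed the largest difference of any member against MEF. On its brightest probe it stood at 1.05 in iPS-OSH, 0.34 in iPS-J, -0.34 in ESC and -5.04 in MEF. The MEF level is below the ERCC background of -3.26, and iPS-OSH was 67.9-fold above it. The other H2-M5 probe gave smaller differences of 1.32, 1.12 and 1.56 for iPS-OSH, iPS-J and ESC against MEF, at levels of -3.33 to -2.90 in the pluripotent cells. Both probes thus put the pluripotent arrays above MEF, by sizes that differ widely. The remaining H2-M genes were dim: H2-M10.1, H2-M10.4 and H2-M10.6 were well above background on no array, and H2-M10.2, H2-M10.3, H2-M9, H2-Q1, H2-T18, H2-T3 and H2-T3-like never exceeded the ERCC level. H2-M1 stood at -3.41, -4.53, -2.45 and -2.67, H2-M11 between -4.64 and -3.73 and H2-T24 between -3.02 and -2.21. H2-M10.1 has no MEF level and H2-T3 no ESC level, as those spots were called outlying.

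Over the class I list, the iPS lines stood apart from each other. Of 28 genes, 25 could be compared between them, with 14 at least 2-fold higher and 2 lower in iPS-OSH and a median of 1.12, where 8.91% of all genes were higher and 7.39% lower. Of the 14, 13 were measured on both arrays and H2-M10.3 was a lower bound. With detection above the ERCC level, 12 of 18 were higher and 1 lower (median 1.35), and with the median over the probes of a gene the list median was 0.70. Against MEF, 4 of 24 were higher and 2 lower in iPS-OSH (median 0.36), where 13.7% of all genes were higher and 25.1% lower. Likewise 3 of 22 were higher and 7 lower in iPS-J (median -0.67), where 16.3% and 26.2% were, and 5 of 22 higher and 3 lower in ESC (median -0.15, but 0.10 when arrays were scaled on detected probes alone), where 22.6% and 16.7% were. The shares of higher genes in iPS-OSH and ESC are thus near those of all genes. The higher genes in those comparisons were H2-M5 and dim genes, apart from H2-Q8 in ESC, and with ERCC-based detection 1 of 18, 1 of 17 and 2 of 17 were higher. Against ESC, 5 of 23 were higher and 3 lower in iPS-OSH (median 0.55), where 8.86% and 27.6% were, and 0 of 22 higher and 7 lower in iPS-J (median -0.74). The shares of lower genes in iPS-J, against both MEF and ESC, were thus a little above those of all genes, which were 26.2% and 25.9%. H2-Ke2, a prefoldin subunit gene, and H2-Ke6, a steroid dehydrogenase gene, lie in the MHC but have no part in presentation. H2-Ke2 stood at 3.81, 3.66, 3.80 and 3.32 and H2-Ke6 at 1.93, 2.91, 1.61 and 0.89 in iPS-OSH, iPS-J, ESC and MEF, so that H2-Ke6 was 2-fold above MEF in both iPS lines. In iPS-OSH that difference was 0.92 with spike-in scaling. H2-gs10, named H2-Q4 in RefSeq but not counted in class I here, stood at 6.08, 5.69, 6.05 and 4.79 and was 2-fold above MEF in iPS-OSH and ESC, but in ESC the difference was 0.73 with spike-in scaling or normexp correction.

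**Figure D4:**
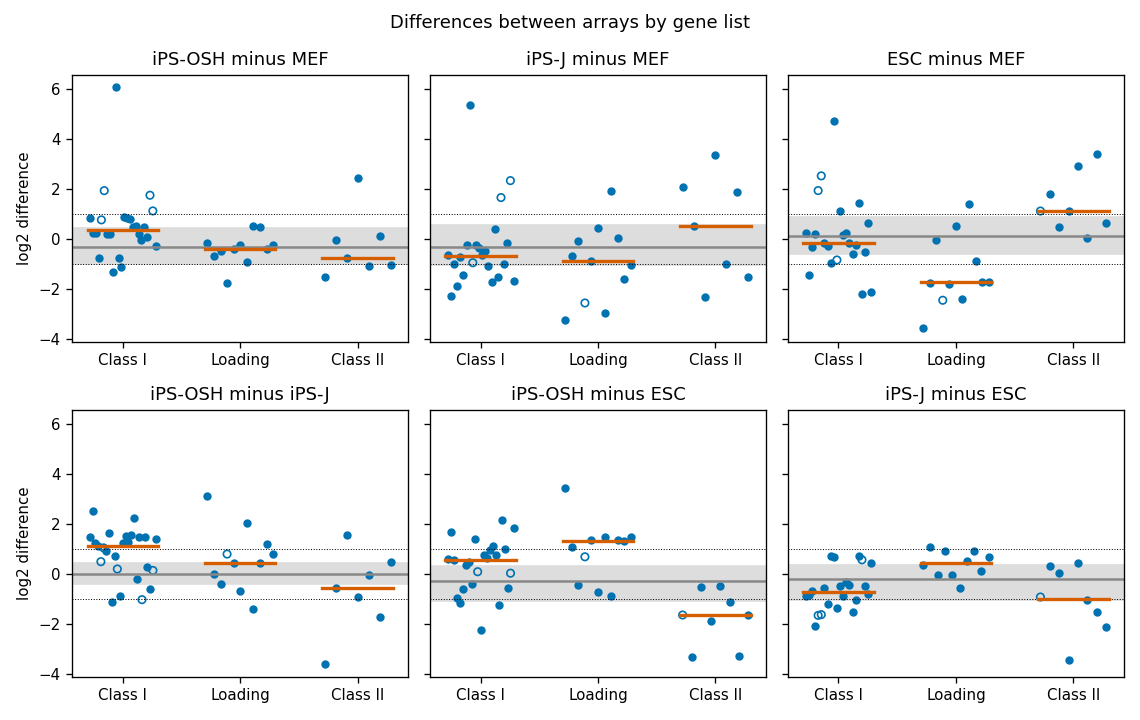
Log2 differences (y axis) of single genes in each pair of arrays, for class I genes, for loading and immunoproteasome genes, and for class II genes. Filled points are measured on both arrays and open points are lower bounds, orange bars mark the list median, the grey line and band the median and quartiles of all genes tested, and dotted lines a 2-fold difference. The class I median of 1.12 in iPS-OSH minus iPS-J and the loading median of -1.73 in ESC minus MEF lie outside the band, as do 7 others of the 18 list medians.

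Levels of cell type markers are given beside these results. The summed scaled signal of 12 fibroblast markers was 305 in iPS-OSH, 58.1 in iPS-J, 45.5 in ESC and 1011 in MEF, with 12, 11, 12 and 12 markers well above background. iPS-OSH thus held more fibroblast signal than the other pluripotent arrays, and H2-D1, B2m, Tap2 and Psmb8 were also nearer to MEF there. The fibroblast sum was lowest in ESC, as were B2m, Tap1, Tap2, Tapbp, Calr, Pdia3, H2-T10 and H2-T9. Others, among them H2-K1, H2-D1, H2-Q7 and Psmb8, were lowest in iPS-J. The sum of 10 endoderm markers was 8.28, 146, 20.5 and 3.94 in iPS-OSH, iPS-J, ESC and MEF, highest in iPS-J. Among them, Lama1, a laminin gene, stood at 6.26 in iPS-J against 2.20 in iPS-OSH. The part of either marker set in the MHC levels was not tested, and more cells of a type and more RNA per cell cannot be told apart in bulk RNA.

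The class II genes did not share 1 order. In ESC 5 of 8 detected members were higher than in MEF and 0 lower, where 22.6% of all genes were higher and 16.7% lower. In the iPS lines members went both ways, and H2-Eb1 alone was higher on all 3 pluripotent arrays. H2-Eb1, the beta chain of the E molecule, stood at -0.27 in iPS-OSH, 0.64 in iPS-J, 0.20 in ESC and -2.71 in MEF. All 3 pluripotent arrays were above MEF, by 5.41-fold, 10.2-fold and 7.49-fold. H2-Ab1, the beta chain of the A molecule, stood at -3.15, 0.47, 0.17 and -1.63. It was 4.29-fold higher in iPS-J and 3.47-fold higher in ESC than in MEF, but 2.87-fold lower in iPS-OSH. iPS-OSH was therefore 12.3-fold below iPS-J. A second H2-Ab1 probe, shifted by a few bases and so reading nearly the same stretch, gave -3.13, 0.62, -0.22 and -1.63. H2-Aa, the alpha chain that pairs with H2-Ab1, was well above background in ESC alone, at -4.47, below the ERCC level of -2.62 on that array. The probe named H2-Ea-ps was well above background on no array.

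The peptide editors of class II, which act in endosomes, were dim and varied in order. H2-DMa stood at -1.57, -1.0, -1.03 and -1.53 in iPS-OSH, iPS-J, ESC and MEF, with no 2-fold difference. Its partner H2-DMb1 stood at -2.36, -3.90, -0.47 and -1.59, so that ESC was 10.7-fold above iPS-J and 2.16-fold above MEF. The iPS-J level is under the ERCC level of its array, -3.86, and iPS-J minus ESC moved from -3.43 to -2.40 with normexp correction. ESC minus MEF was 0.59 with spike-in scaling, inside 2-fold. H2-DMb2 was well above background on no array. H2-Oa, a subunit of the DM inhibitor, stood at -5.26, -3.51, -1.99 and -5.40, highest in ESC and 10.6-fold above MEF there. The MEF level is under the ERCC level, and against that level the difference was 1.27 in place of 3.41. Its partner H2-Ob was highest in ESC on the probe used, at -4.25, -4.72, -2.59 and -3.22, but its other probe was above background in iPS-OSH alone, at -2.62. H2-Eb2, a beta chain gene beside H2-Eb1, lay between -4.48 and -3.37 and never exceeded the ERCC level.

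**Figure D5:**
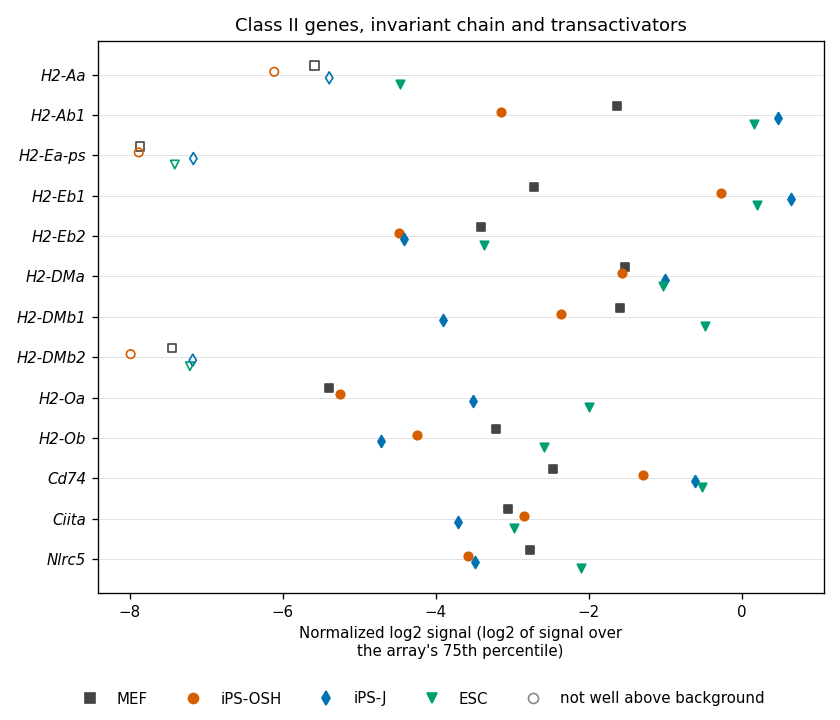
Normalized log2 signal (x axis) of the class II genes, the invariant chain gene Cd74 and the transactivator genes (rows) on each array, with filled points well above background and open points not, 1 array per population. H2-Eb1 and Cd74 are lowest in MEF, H2-Ab1 is lowest in iPS-OSH, and H2-DMb1 and H2-Oa are highest in ESC.

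Cd74, the invariant chain that holds class II molecules until peptide is loaded, stood at -1.29 in iPS-OSH, -0.61 in iPS-J, -0.52 in ESC and -2.47 in MEF. MEF was lowest, and the pluripotent arrays were 2.26-fold, 3.62-fold and 3.85-fold above it, although iPS-OSH differed from MEF by 0.92 with normexp correction. Ciita, the transactivator on which class II transcription depends, differed by less than 2-fold in every pair, with levels of -2.84, -3.71, -2.98 and -3.05. A probe named Ciita in the MEF file alone stood at -3.34, -3.49, -3.36 and -2.22. Nlrc5, the related transactivator of class I genes, stood at -3.58, -3.49, -2.10 and -2.77, highest in ESC. Its other probe stood at -1.96 in iPS-OSH, -3.06 in ESC and -2.54 in MEF and was not above background in iPS-J, so Nlrc5 has no settled order.

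As a list, 5 of 8 detected class II genes were 2-fold higher in ESC than in MEF and 0 lower (median 1.12), where 22.6% of all genes were higher and 16.7% lower. In iPS-J, 3 of 7 were higher and 3 lower (median 0.53), where 16.3% and 26.2% of all genes were, and in iPS-OSH 1 was higher and 3 of 7 lower (median -0.77), where 13.7% and 25.1% were. Against ESC, 6 of 8 were lower in iPS-OSH (median -1.65) and 4 of 8 in iPS-J (median -0.99), with 0 higher in either, where 27.6% and 25.9% of all genes were lower. Between the iPS lines, 1 of 7 was higher and 2 lower in iPS-OSH (median -0.57), where 8.91% of all genes were higher and 7.39% lower (median 0.01). In the same pair class I had 14 of 25 higher. With ERCC-based detection 4 of 6 class II genes were higher and 0 lower in ESC than in MEF. The ESC median of 1.12 fell under 2-fold with several other settings, to 0.74 with normexp correction and 0.59 with spike-in scaling.

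Markers of leukocytes and antigen-presenting cells, the usual source of class II, were measured beside these genes. Of 11 on the array, 10 were well above background on each array, and their summed scaled signal was 21.7 in iPS-OSH, 16.1 in iPS-J, 11.0 in ESC and 35.7 in MEF. The sum was highest in MEF, where H2-Eb1 and Cd74 were lowest, whereas H2-Ab1 was lowest in iPS-OSH and H2-DMb1 in iPS-J. Any part of such cells in the class II levels was not tested. Itgax, the CD11c gene of dendritic cells, was well above background on no array. Ptprc, the CD45 gene of all leukocytes, was dim at -3.46, -3.74, -2.66 and -2.54. Lyz2, a lysozyme gene of myeloid cells, stood at -0.91, -4.01, -3.33 and -0.60, high in iPS-OSH and MEF. Itgam was the brightest marker of the list on each array, at 3.75, 2.82, 1.83 and 4.51 in iPS-OSH, iPS-J, ESC and MEF. Csf1r stood at 0.63, 1.16, 1.18 and 2.57. Of the 10 detected markers, 4 were 2-fold higher and 0 lower in iPS-OSH than in iPS-J. Against ESC, 4 were higher and 1 lower in iPS-OSH. Against MEF, 0 were higher and 2 lower in iPS-OSH, 1 and 6 in iPS-J, and 2 and 4 in ESC. Itgax and Ptprc were named after their values had been seen.

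Genes that act on the MHC genes or beside them were read from lists. Against MEF, 13.7% of all genes were higher and 25.1% lower in iPS-OSH, 16.3% and 26.2% in iPS-J, and 22.6% and 16.7% in ESC, and the counts of these lists are set beside those shares. Of 20 upstream regulators, 1 was 2-fold higher and 9 lower in iPS-OSH than in MEF, 2 higher and 11 lower in iPS-J, and 2 higher and 10 lower in ESC. Their shares of lower genes were above those of all genes on each array. Ifngr2, a chain of the interferon gamma receptor, stood at 2.66 in iPS-OSH, 0.87 in iPS-J, 0.22 in ESC and 3.19 in MEF. Rela, an NF-kB subunit, stood at 3.70, 3.12, 2.11 and 4.82, and Irf2, an interferon regulatory factor, at -2.20, -4.39, -4.14 and -0.46. These genes were highest in MEF, with iPS-OSH next. Irf1, the interferon-induced activator of class I genes, was nearly level, at 2.37, 2.02, 2.57 and 2.40. Rfx5, a subunit of the X box factor, lay between -6.88 and -3.53.

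Of 12 class II processing genes, 0 were higher and 4 lower in iPS-OSH than in MEF, 2 higher and 4 lower in iPS-J, and 0 higher and 8 lower in ESC. In the iPS lines the lower share is near that of all genes, 25.1% and 26.2%, and in ESC above the 16.7%. Ctss, the cathepsin that degrades the invariant chain, stood at -0.80, -3.32, -3.13 and 0.55 in iPS-OSH, iPS-J, ESC and MEF. Lamp2, a lysosomal membrane gene, stood at 2.85, 2.13, 1.82 and 4.41, and March8, a ubiquitin ligase that removes class II from the surface, at 0.59, -0.11, -0.18 and 2.53. All 3 were highest in MEF, unlike H2-Eb1 and Cd74. Of 12 other class I pathway genes, 1 was higher and 2 lower in iPS-OSH, 1 higher and 3 lower in iPS-J, and 1 higher and 5 lower in ESC. The lower shares in the iPS lines are no larger than those of all genes, 25.1% and 26.2%. The higher gene was Ube2l6, the ISG15 conjugating enzyme, at 3.55, 3.86, 2.25 and 0.57. Tapbpl, the peptide editor TAPBPR, stood at -1.84, -3.10, -2.51 and -1.35.

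Of 14 detected costimulation and NK ligand genes, 4 were higher and 5 lower in iPS-OSH than in MEF, where 2 of 13 were higher and 5 lower in iPS-J, and 4 of 14 higher and 4 lower in ESC. The shares of all genes were 13.7% and 25.1%, 16.3% and 26.2%, and 22.6% and 16.7%. Icosl, the ligand of the T cell costimulator ICOS, stood at 0.92, 1.27, 0.24 and -2.53, higher on all pluripotent arrays. Pdcd1lg2, the PD-L2 gene, stood at -3.94, -4.57, -4.19 and -2.52. Raet1e, a ligand of the NK receptor NKG2D, stood at 2.15, 1.88, 1.07 and 3.03, lowest in ESC.

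Finally, the members that set 1 array apart from every other by 2-fold were counted over the 49 members that could be compared. ESC was highest for 5 members, H2-DMb1, H2-M10.2, H2-Oa, H2-Q1 and H2-Q8 (10.2%, against 7.57% of all genes). It was lowest for Calr alone, where 1.32% of all genes were. With normexp correction Calr in ESC was within 2-fold of either iPS line. iPS-J was lowest for 4, H2-DMb1, H2-M1, H2-M2 and H2-Q7, where 1.68% of all genes were. Of these, H2-DMb1 and H2-M1 were under the ERCC level in iPS-J, and the other H2-M2 probe had its lowest level in iPS-OSH. iPS-J was highest for 0, where 1.42% of all genes were. iPS-OSH was lowest for H2-Ab1 alone and highest for 0, where 1.05% and 0.614% of all genes were. MEF was highest for Erap1 alone, where 8.63% of all genes were, and lowest for Cd74, H2-Eb1 and H2-M5, where 8.53% were. With the ERCC level as the limit, Erap1 in MEF was not 2-fold above any other array. The ESC share is near that of all genes, and of its 5 members only H2-DMb1 and H2-Q8 exceeded the ERCC level on 3 arrays or more.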

How the data were processed

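RNA of 4 populations was measured on 1 array each of 1 slide. Per the file headers, Agilent Feature Extraction 10.5.1.1 background-subtracted each spot's intensity, with no normalization between arrays. The deposited value table holds the same intensity, rounded to whole numbers (deviation at most 0.497%). Probe positions are on mm9, per the file headers, and further steps were not given in the sources used here.

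The log2 processed signal minus the 75th percentile of its array was averaged over spots of a probe, without spots called uneven or outlying. A gene took its brightest probe by mean log2 signal. Names came from the 3 files that agree, since the MEF file named 1714 probes differently, 4 of them among those reported. RefSeq matched 58 of 66 probes by accession, 6 by symbol and 1 by synonym, and 1 not at all. Comparisons took genes whose probe the software called well above background on either array. Where only 1 array met this, the difference is a lower bound, given as "at least", against the higher of the lowest signal well above background and the probe's own signal. Of the members, 50 met this on 1 array or more, as did 90.5% of all genes, 42 on all 4 and 5 on none. With 1 array per group no test was run, and all 6 pairs were compared. The number of arrays limits the precision.

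All members detected on an array could be named. Of each context and marker list, up to 4 genes with the largest difference from MEF were eligible, plus Irf1, Rfx5, Pou5f1 and Col1a1, and some genes of these lists are not reported here. The members and lists were chosen with earlier results of these data known. Alternatives were 9 planned and 2 added after seeing the data. They included quantile normalization and normexp (offset 50), the latter run in limma 3.58.1 (R 4.3.3). The procedure was tested on simulated data.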

Additional observations from a re-analysis of the deposited data

Results flagged for a closer look

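These 3 genes lay at least 2-fold from MEF in opposite directions on different pluripotent arrays, and none of these contrasts was tested, as each population had 1 array. H2-Ab1, a class II beta chain gene, differed from MEF by -1.52 in iPS-OSH but by 2.10 in iPS-J and 1.80 in ESC. H2-DMb1, a subunit of the class II peptide editor, differed from MEF by -2.31 in iPS-J and by 1.11 in ESC. H2-Q1, a dim class I gene, differed from MEF by -1.11 in iPS-OSH and by 1.12 in ESC, and its level exceeded the ERCC control level on 0 arrays. The H2-DMb1 difference in ESC fell to 0.59 with spike-in scaling, and those of H2-Q1 to -0.48 with normexp in iPS-OSH and 0.59 with spike-in scaling in ESC, all inside 2-fold, while the H2-Ab1 differences stayed past 2-fold with every setting run. Both overlapping probes of H2-Ab1 showed the opposite directions, with -1.5, 2.24 and 1.41 on the second one.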

How the results depend on the processing

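The 18 list medians (3 lists in 6 pairs) were recomputed with 9 settings chosen beforehand and 2 added after seeing the data, with a change counted where a median crossed 2-fold, or changed sign, or moved by over 1.5-fold. All 18 kept their place with the deposited value table, with ERCC-based detection and with the brightest probe by linear mean (added). The class II median in ESC minus MEF, 1.12, was 0.74 with normexp, 0.97 with quantile normalization, 0.59 with spike-in scaling, 0.87 with no filter on dim probes and 0.68 with no scaling between arrays (added). That in iPS-OSH minus ESC, -1.65, became -0.95 with normexp, although quantile normalization left it at -1.05, and that in iPS-J minus ESC, -0.99, became -0.39 with normexp, -0.21 with quantile normalization, -1.19 with the percentile over probes detected on all arrays, -1.05 with detection on both arrays and -1.06 without scaling. That in iPS-OSH minus MEF was -0.039 with the median over probes. For class I, iPS-OSH minus iPS-J, 1.12, was 0.70 with the median over probes, ESC minus MEF, -0.15, was 0.10 with the percentile over detected probes and 0.0024 with no filter, and iPS-J minus MEF was -1.18 without scaling. For loading, iPS-OSH minus ESC, 1.33, was 0.92 with normexp, and iPS-J minus MEF, -0.86, was -1.16 with spike-in scaling and -1.37 without scaling. The cause of these shifts was not tested.

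Of 284 differences of single genes, 120 were 2-fold; 51 of these fell inside 2-fold with at least 1 setting, and 52 others reached it. A total of 4 reversed: H2-Ob in iPS-OSH minus MEF to 2.11 and in iPS-OSH minus ESC to 1.54 with the median over probes, and Nlrc5 in iPS-OSH minus ESC to 1.1 and H2-Q10 in iPS-OSH minus iPS-J to -0.46 with the brightest probe by linear mean. Spike-in scaling moved the median of all genes in ESC minus MEF from 0.13 to -0.40. The share of 2-fold differences that were higher ranged over normexp and the scaling settings from 26.4% to 45.3% in iPS-OSH minus MEF (35.2% as reported), 19.4% to 50.8% in iPS-J minus MEF (38.3%), 33.3% to 68.2% in ESC minus MEF (57.4%), 17.1% to 49.7% in iPS-OSH minus ESC (24.3%), 10.2% to 45.9% in iPS-J minus ESC (17.5%) and 48.9% to 78.6% in iPS-OSH minus iPS-J (54.7%). No paired analysis was possible because each group had 1 array. Signal over background limits the H2-M10 genes, H2-Aa, H2-Eb2, H2-Q1, H2-T3 and H2-T18.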
